A study of Mus musculus with 13 samples.

Results

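Prostaglandins are short-lived lipids that cells make from arachidonic acid released from their membranes. The cyclooxygenases Ptgs1 (COX-1, present in many tissues) and Ptgs2 (COX-2, inducible by inflammatory signals) make the common precursor, terminal synthases turn it into single prostaglandins, and 15-hydroxyprostaglandin dehydrogenase (Hpgd) inactivates them. Prostaglandin E2 acts through the receptors Ptger1 to Ptger4 (EP1 to EP4), and COX-2 has long been studied in mammary tumors, including those driven by HER2. The 9 genes described here were chosen by symbol from the 24421 genes counted. They were both cyclooxygenases, the prostaglandin E synthase Ptges, the prostaglandin D synthase Ptgds, Hpgd, and the 4 receptors. Ptger1 was among the reasons for the choice because its counts were low in recurrent tumors of mice without stavudine, so its values are given below as a description, with no test, wherever those tumors enter.

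Total RNA was sequenced from 11 mammary tumors and 2 glands free of cancer, all from females of the TgN(MMTV-HER2/neu)202Mul/J line on the FVB/N background. These mice carry rat HER2/Neu under the long terminal repeat promoter of mouse mammary tumor virus, which drives it in the breast epithelium, so the glands (n = 2) carried the transgene too. The primary untreated tumors (n = 3) came from mice on plain water, and the primary STV tumors (n = 3) from mice whose water held 1 mg/mL of the reverse transcriptase inhibitor stavudine (STV). The recurrent DMAG tumors (n = 3) were tumors that came back once 20 mg/kg of the Hsp90 inhibitor 17-DMAG had cleared them, and the recurrent DMAG+STV tumors (n = 2) did so in mice that also had stavudine in their water. In the study, 17-DMAG treatment went on while tumors regrew, so recurrence and current treatment cannot be told apart in these groups. Tumors arise spontaneously in this model, but labels gave no animal identifiers, so whether each came from its own mouse is not known. Whether stavudine began at a young age or with the tumor was not labelled for single samples. Ages were not used here.

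Libraries held between 39921388 and 56887708 counts. Gland 2 stood apart from gland 1 and from all tumors, with 34.1% of its counts in 6 milk protein genes against 3.05% in gland 1 and 0.489% to 2.47% in tumors. The normalisation factor of gland 2 was 0.493, while those of the other 12 libraries ran from 0.999 to 1.12. Levels below are in CPM, counts scaled to a common normalised library total, and levels of different genes are compared only per kilobase of exon. Luminal keratins and adhesion genes were present in every library, with a summed level of 1352 to 2771 CPM in tumors and 1397 to 1686 CPM in glands. The luminal markers thus matched the labelled tissue.

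Promoters are shown for 4 of the genes, because Ptgs2 varied over the widest range between the recurrent tumors and because Ptger2, Ptges and Ptger4 had the smallest p-values between tumors and glands. Each window is the 120 bases before the RefSeq transcription start on GRCm38.p6, written 5′ to 3′ on the gene's strand, with every motif found in capitals.
Ptgs2, chr1:150099911-150100030, plus strand: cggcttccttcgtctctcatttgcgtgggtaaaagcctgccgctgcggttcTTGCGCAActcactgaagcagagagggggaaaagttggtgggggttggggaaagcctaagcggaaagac
Ptges, chr2:30903298-30903417, minus strand: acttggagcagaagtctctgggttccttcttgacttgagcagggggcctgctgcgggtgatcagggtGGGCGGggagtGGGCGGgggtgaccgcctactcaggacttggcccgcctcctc
Ptger2, chr14:44987991-44988110, plus strand: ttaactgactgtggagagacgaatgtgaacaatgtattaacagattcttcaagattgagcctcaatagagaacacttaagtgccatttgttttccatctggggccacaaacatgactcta
Ptger4, chr15:5244188-5244307, minus strand: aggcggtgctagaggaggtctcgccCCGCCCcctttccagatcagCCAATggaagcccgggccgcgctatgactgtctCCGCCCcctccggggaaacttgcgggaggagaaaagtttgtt
The search covered 6 motifs on both strands: the C/EBP palindrome TTGCGCAA, the CCAAT box (CCAAT), the GC box (GGGCGG), the E-box (CACGTG), the cAMP response core (TGACG) and the TATA box (TATAAA). The marked stretches do not overlap one another. The Ptgs2 window held TTGCGCAA, beginning 69 bases before the start, and 27 of 32851 mouse promoter windows of this length (0.0822%) held it. The Ptges window held 2 GC boxes. The Ptger4 window held 1 CCAAT box and 2 GC boxes, which stand as CCGCCC because they lie on the other strand. GC boxes were in 26.5% and CCAAT boxes in 21.3% of all windows, E-boxes in 3.66%, cAMP response cores in 11.7% and TATA boxes in 6.34%. The Ptger2 window held none of the 6 motifs. A match in letters is no measured binding site.

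Per kilobase, Ptger1 and Ptgs1 had the highest median levels over the 11 tumors, at 6.31 and 4.70 CPM per kilobase. Ptger4 followed at 1.26, Hpgd at 1.02, Ptgds at 0.719, Ptges at 0.713, Ptger2 at 0.236, Ptger3 at 0.195 and Ptgs2 at 0.127 CPM per kilobase. Neighbours in this order overlapped in their ranges over tumors in every case. In the glands the order was another one. Ptges had 10.9 and 24.2 CPM per kilobase in glands 1 and 2, the highest level in gland 1. Ptgs1 was the highest in gland 2 (41.3), but in gland 1 (5.29) it lay below Ptges, Ptger1 (6.06) and Ptger4 (5.58). The highest tumor exceeded the lowest by 1.605-fold for Ptger1, by 5.97- to 7.73-fold for Ptger2, Ptgs1 and Ptger4, by 16.6-fold for Ptges and 21.0-fold for Hpgd, and by 70.8-, 123- and 129-fold for Ptger3, Ptgs2 and Ptgds.

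**Figure D1:**
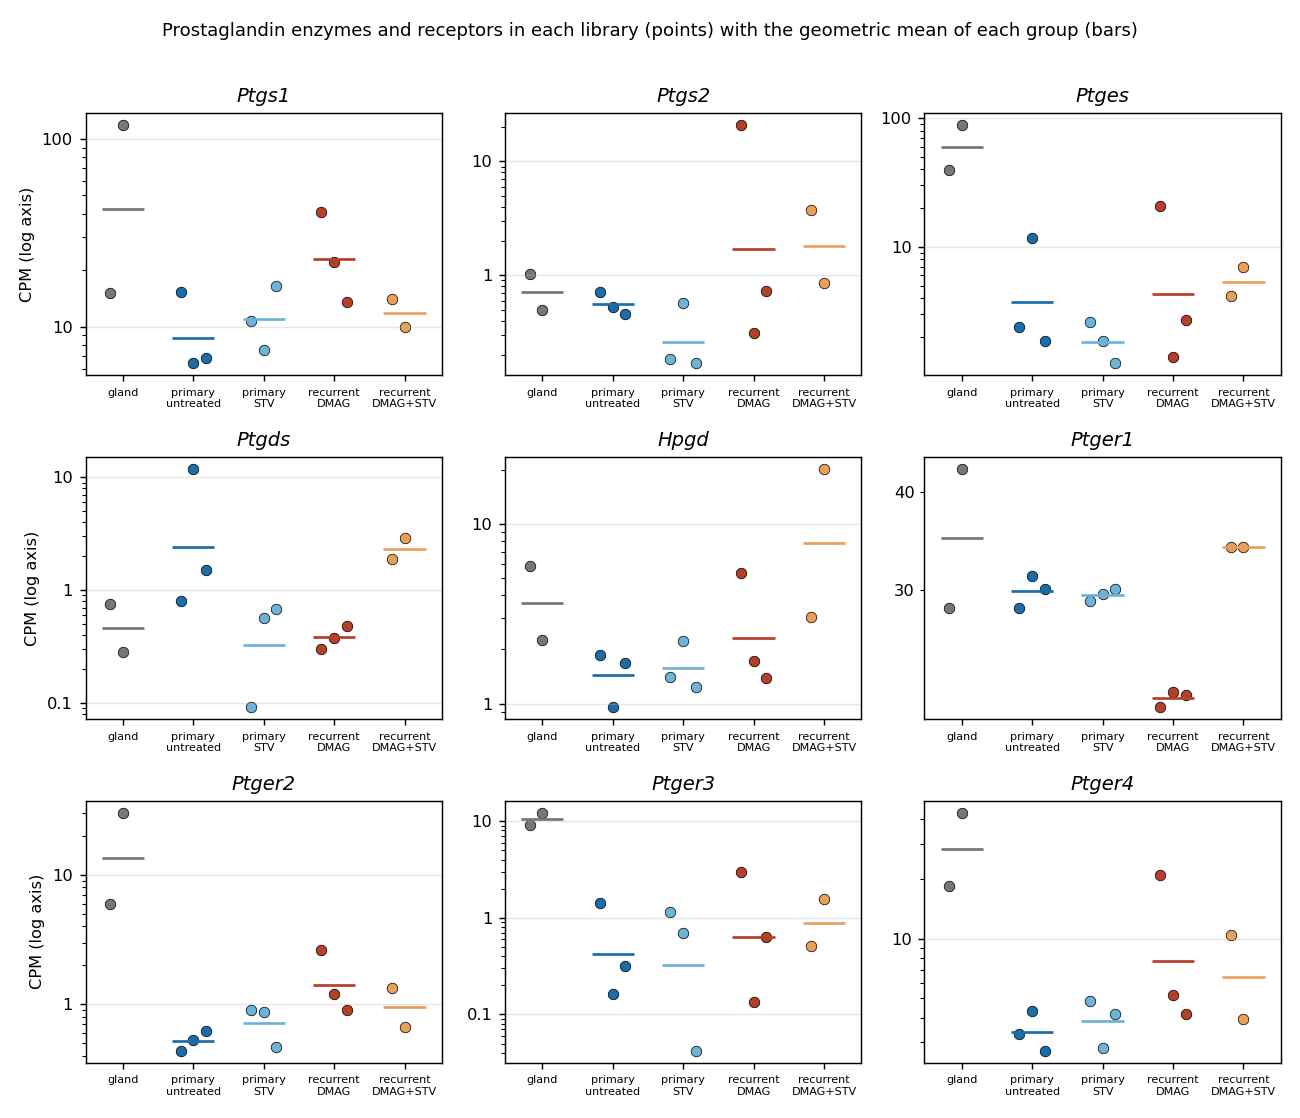
CPM of the 9 genes on logarithmic axes, 1 panel a gene, with 1 point a library and a bar at the geometric mean of each group. Ptger2, Ptger3 and Ptges are higher in both glands than in every tumor, recurrent DMAG tumor 1 is the highest tumor for 6 of the 9 genes, and Ptger1 is lowest in the 3 recurrent DMAG tumors.

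The first comparison asks how the genes differ between tumors and the tissue they arose in. Among the E2 receptors, Ptger2, Ptger3 and Ptger4 were lower in tumors, and so were the prostaglandin E synthase Ptges and the constitutive cyclooxygenase Ptgs1. Ptgs2, Ptgds and Hpgd did not pass the test. Those 5 genes of the 8 tested were called lower in the mean of the 4 tumor groups than in glands and none higher. Of all 17135 genes tested in this comparison 8.81% were called lower and 1.6% higher, and the median log2 fold change was -0.02 over all genes and -2.30 over the 9.

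Ptger2, the EP2 receptor that raises cyclic AMP, had 5.98 and 30.3 CPM in glands 1 and 2. In tumors its lowest, median and highest levels were 0.438, 0.870 and 2.62 CPM, so no tumor reached either gland. The log2 fold change was -4.35 ± 0.46 (SE), which is 20.3-fold lower, with an adjusted p of 0.000862. Without gland 2 it was -2.66 with an adjusted p of 0.0180.

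Ptges, which makes prostaglandin E2 from the cyclooxygenase product, had 39.9 and 88.1 CPM in the glands and 1.24, 2.60 and 20.7 CPM (lowest, median, highest) in tumors. The 2 tissues did not overlap, and the 2 highest tumors were recurrent DMAG 1 and primary untreated 2. The log2 fold change was -3.79 ± 0.73 (adjusted p = 0.0116). Ptger3, the EP3 receptor that lowers cyclic AMP, had 9.13 and 12.2 CPM in the glands and 0.0422, 0.630 and 2.99 CPM in tumors. No tumor reached either gland here too, and the lowest tumor held 2 reads, under the 3 taken as the floor. The log2 fold change was -3.65 ± 0.90 (adjusted p = 0.0304).

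Ptger4, the EP4 receptor that also raises cyclic AMP, had 18.5 and 43.3 CPM in the glands and 2.73, 4.18 and 21.1 CPM in tumors, and 1 tumor lay above gland 1. Its log2 fold change was -2.46 ± 0.49 (adjusted p = 0.0137). Ptgs1 had 15.2 CPM in gland 1 and 118 CPM in gland 2, against 6.40, 13.5 and 40.9 CPM in tumors. Gland 1 lay inside the tumor range and gland 2 far above it. The log2 fold change of Ptgs1 was -2.30 ± 0.54 (adjusted p = 0.0256) and -0.08 without gland 2 (adjusted p = 0.972).

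Ptger2, Ptger3 and Ptges were the 3 of the 9 genes with every tumor below both glands, against 7.37% of all genes. The call in this comparison rested on gland 2, the milk-rich library, for 4 of the 5 genes. Without it only Ptger2 was called, while 2.94% of all genes were called lower. Ptger3 was then at -3.34 (adjusted p = 0.211), Ptges at -3.02 (adjusted p = 0.163) and Ptger4 at -1.64 (adjusted p = 0.284). With library totals alone in place of the normalisation factors, Ptger2 and Ptges were called. Over the 20 alternative settings, described with the processing below, Ptger3 lost its call in 8 and Ptgs1 in 6. Leaving out recurrent DMAG+STV tumor 1 or tumor 2 left 3 genes called each, with Ptger3 at adjusted p = 0.0749 and 0.0564 and Ptgs1 at 0.0503 and 0.0547.

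Ptgs2 had 1.03 and 0.500 CPM in glands 1 and 2 and a tumor median of 0.566 CPM, with a log2 fold change of 0.76 ± 1.25 that was -0.19 without recurrent DMAG tumor 1. Ptgds, a lipocalin-type synthase of prostaglandin D2, had 0.748 and 0.286 CPM in glands and a tumor median of 0.675 CPM, with a log2 fold change of 1.17 (95% interval -1.02 to 3.36). Hpgd had 5.84 and 2.25 CPM in glands and a tumor median of 1.72 CPM, with a log2 fold change of -0.44 (95% interval -1.88 to 1.00). The 95% interval of Ptgs2 was -2.02 to 3.54. These intervals leave room for differences of about 2-fold or more in either direction. Ptger1 had 28.4 and 42.9 CPM in the glands and 29.6 CPM as its tumor median.

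Glands and tumors differed in cell types as well. All 6 adipocyte markers were called lower in tumors, with summed levels of 656 to 783 CPM in glands and 5.31 to 89.3 CPM in tumors, where 4 of the 6 stood at 0 in primary STV tumor 3. Of the basal and myoepithelial markers 4 of 7 were called lower, with 323 to 917 CPM in glands and 21.7 to 270 CPM in tumors. Lymphocyte markers (4 of 5 tested called lower) had 125 CPM in gland 1 and 4.32 CPM in gland 2, against 1.45 to 3.76 CPM in tumors, with 1 or 2 of the 6 listed at 0 in 4 tumors. Neutrophil markers (3 of 6 called lower) had 28.7 and 6.67 CPM in glands and 2.61 to 21.0 CPM in tumors. Endothelial markers (2 of 6 called lower) had 285 to 309 CPM in glands and 66.1 to 283 CPM in tumors. Fibroblast markers (1 of 7 called lower) had 2340 to 2631 CPM in glands and 281 to 5728 CPM in tumors. Milk protein genes (4 of 6 called lower) are given above, and none of the 7 macrophage markers was called. The part of these cell types in the lower receptor and synthase levels was not tested, and in whole tissue fewer cells of a type and less RNA per cell cannot be told apart.

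**Figure D2:**
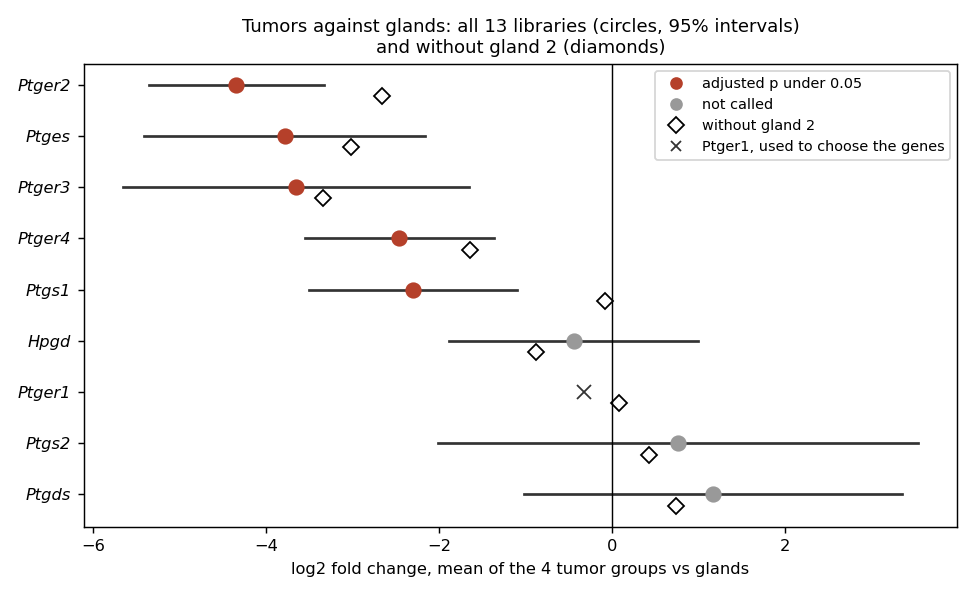
Log2 fold changes of the mean of the 4 tumor groups against glands for each gene, with 95% intervals over all 13 libraries (circles) and the value without gland 2 (diamonds); Ptger1 (cross) has no interval. The 5 called genes lie between -4.35 and -2.30, and without gland 2 Ptgs1 lies at -0.08.

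Beyond the 9 genes, 50 genes of the same pathways were listed and 41 were tested against glands, and 3 were called lower and none higher, where 8.81% of all genes were called lower. Pla2g2d, a secreted phospholipase that can release fatty acids from membranes, had 21.0 and 3.28 CPM in glands and at most 2.50 CPM in tumors (log2 fold change -3.90 ± 0.85, adjusted p = 0.0185). Abcc4, a transporter that can export prostaglandins, had 12.9 and 8.14 CPM in glands and 1.52 to 7.53 CPM in tumors (log2 fold change -1.76 ± 0.44, adjusted p = 0.0307). Ltb4r1, a receptor of leukotriene B4, had 0.525 and 7.74 CPM in glands and 0 to 0.602 CPM in tumors (log2 fold change -6.74, adjusted p = 0.00850). That fold depends on tumor libraries at 0. Gland 1 lay inside the tumor range of Ltb4r1, and only gland 2, the milk-rich library, lay above it. By list, 1 of 10 tested genes of arachidonate release, 1 of 5 of transport and breakdown and 1 of 10 of the lipoxygenase branch were called, and none of 8 other synthases, 3 other receptors and 5 inducers of Ptgs2. Akr1b3 had no count in any library. How reads that map to several places were counted was not given, and whether the gene was truly silent was not tested.

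The next comparison asks what stavudine alone did in primary tumors. None of the 9 genes was called by edgeR, and neither was any of the 16870 genes tested in tumors (0%), while 634 genes and 1 of the 9 had an unadjusted p under 0.05. DESeq2 called 0.101% of all genes and none of the 9, and limma voom called none of the 9. The 1 gene was Ptgds, at 0.797, 11.9 and 1.52 CPM in primary untreated tumors 1, 2 and 3 and at 0.0921, 0.566 and 0.675 CPM in the primary STV tumors. Every STV tumor lay below every untreated one, which 10.9% of all genes also showed in one direction or the other. The log2 fold change of Ptgds was -3.42 ± 1.04 (adjusted p = 0.9998), and -1.37 without primary untreated tumor 2, the highest of all tumors for Ptgds.

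For the other genes the primary tumors with and without stavudine overlapped. Ptger1 ran from 28.4 to 31.2 CPM without and from 29.0 to 30.1 CPM with stavudine, a log2 fold change of -0.03 with a 95% interval of -0.23 to 0.18. Ptger4 ran from 2.73 to 4.32 and from 2.81 to 4.88 CPM, with an interval of -1.20 to 1.56 for the log2 fold change. Ptger2 ran from 0.438 to 0.622 and from 0.464 to 0.898 CPM (interval -0.66 to 1.61), and Ptgs1 from 6.40 to 15.4 and from 7.49 to 16.5 CPM (interval -0.81 to 1.35). Hpgd ran from 0.958 to 1.87 and from 1.24 to 2.22 CPM (interval -1.50 to 1.70). Levels spread further for 3 genes. Ptgs2 ran from 0.461 to 0.717 and from 0.169 to 0.566 CPM (interval -3.95 to 2.15), and Ptger3 from 0.163 to 1.43 and from 0.0422 to 1.15 CPM (interval -2.89 to 2.83). Ptges ran from 1.84 to 11.8 and from 1.24 to 2.60 CPM, with a log2 fold change of -1.51 (interval -3.80 to 0.79) that was -0.15 without primary untreated tumor 2.

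Recurrent tumors were then compared with primary tumors in each water arm, to ask which genes differed in tumors that regrew under continued 17-DMAG. The 2 contrasts share no library. On plain water, edgeR called none of the 8 tested genes and no other gene (0%), although 5 of the 8 had an unadjusted p under 0.05, as did 9.69% of all genes. DESeq2 called 0.362% of all genes and 1 of the 8, Ptgds. With stavudine, edgeR called none of the 9 and no other gene (0%), 2 of the 9 and 10.1% of all genes had an unadjusted p under 0.05, and DESeq2 called 1.96% of all genes and 1 of the 9, Hpgd. limma voom called none of them in either arm.

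Ptgs2 had 0.717, 0.530 and 0.461 CPM in the primary untreated tumors and 20.8, 0.313 and 0.735 CPM in recurrent DMAG tumors 1, 2 and 3. Tumor 1 alone was high, and the other two lay around the primary range. The log2 fold change was 3.66 ± 1.41 (adjusted p = 0.509) with it and -0.11 without it (adjusted p = 0.983). In the stavudine arm Ptgs2 had 0.184, 0.566 and 0.169 CPM in primary and 3.75 and 0.856 CPM in recurrent tumors. The 2 groups did not overlap, and the log2 fold change was 2.90 ± 1.48 (adjusted p = 0.523), or 1.47 without recurrent DMAG+STV tumor 1 (adjusted p = 0.760). Of both cyclooxygenases per kilobase, Ptgs2 made up 24.7% in recurrent DMAG tumor 1 and 14.7% in recurrent DMAG+STV tumor 1, against 0.654% to 5.26% in the other 9 tumors and 4.19% and 0.271% in the glands.

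Ptgs1 had 15.4, 6.40 and 6.82 CPM in primary untreated tumors and 40.9, 22.1 and 13.5 CPM in recurrent DMAG tumors. The groups overlapped in 1 tumor each, and the log2 fold change was 1.40 ± 0.49 (adjusted p = 0.509), or 0.90 without recurrent DMAG tumor 1. With stavudine it had 10.8, 7.49 and 16.5 CPM in primary and 14.1 and 9.93 CPM in recurrent tumors, a log2 fold change of 0.05 ± 0.54. Ptges had 2.39, 11.8 and 1.84 CPM in primary untreated tumors and 20.7, 1.38 and 2.71 CPM in recurrent DMAG tumors, so each group held 1 high tumor. Its log2 fold change was 0.61 ± 1.00 (adjusted p = 0.816) and -1.37 without recurrent DMAG tumor 1. With stavudine Ptges had 2.60, 1.85 and 1.24 CPM in primary and 4.15 and 6.91 CPM in recurrent tumors (log2 fold change 1.54 ± 1.104, adjusted p = 0.623).

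Ptgds had fold changes of opposite sign in the arms, neither of them called by edgeR. On plain water it had 0.301, 0.380 and 0.483 CPM in the recurrent DMAG tumors, all below the primary untreated tumors given above. With stavudine it had 1.88 and 2.87 CPM in the recurrent tumors, both above the primary STV tumors. The log2 fold changes were -3.62 ± 1.05 (adjusted p = 0.509) and 2.42 ± 1.07 (adjusted p = 0.494). The difference between them was 6.04 ± 1.49 on the log2 scale, with an adjusted p of 0.435 by edgeR and 0.00810 by DESeq2, which called 1.12% of all genes for this difference where edgeR called none (0%) and found 1322 at an unadjusted p under 0.05. DESeq2 also called the change on plain water (adjusted p = 0.0369). Without primary untreated tumor 2 the edgeR values were -1.57 on plain water and 3.96 for the difference.

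Hpgd, which breaks prostaglandins down, had 1.40, 2.22 and 1.24 CPM in primary STV tumors and 3.01 and 20.2 CPM in recurrent DMAG+STV tumors. The groups did not overlap, and the log2 fold change was 2.84 ± 0.79, with an adjusted p of 0.336 by edgeR and 0.0242 by DESeq2. Without recurrent DMAG+STV tumor 2, the highest tumor for Hpgd, it was 0.89 by edgeR. That tumor also had the highest summed skeletal muscle markers of the tumors (1882 CPM) and the lowest summed luminal markers (1352 CPM). Primary untreated tumor 1, with Hpgd at 1.87 CPM, had 1189 CPM of the muscle markers. The part of tissue content in the Hpgd level was not tested. On plain water Hpgd had 1.87, 0.958 and 1.68 CPM in primary and 5.30, 1.72 and 1.39 CPM in recurrent tumors, which overlapped, and the log2 fold change was 0.88 ± 0.71 (adjusted p = 0.626).

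Of the receptors, Ptger2 had 0.438, 0.530 and 0.622 CPM in primary untreated and 2.62, 1.21 and 0.903 CPM in recurrent DMAG tumors. Each recurrent tumor lay above each primary one, and the log2 fold change was 1.55 ± 0.51 (adjusted p = 0.509), or 1.00 without recurrent DMAG tumor 1. With stavudine it had 0.898, 0.870 and 0.464 CPM in primary and 1.33 and 0.673 CPM in recurrent tumors, a log2 fold change of 0.43 (95% interval -0.81 to 1.67). Ptger4 had 3.33, 4.32 and 2.73 CPM in primary untreated and 21.1, 5.18 and 4.16 CPM in recurrent DMAG tumors. Tumor 1 was again far above the others, and the log2 fold change was 1.54 ± 0.63 (adjusted p = 0.509) with it and 0.44 without it. With stavudine Ptger4 had 4.88, 2.81 and 4.18 CPM in primary and 10.5 and 3.96 CPM in recurrent tumors, and the log2 fold change was 0.87 ± 0.68 (adjusted p = 0.649), or -0.01 without recurrent DMAG+STV tumor 1. Ptger3 ran from 0.163 to 1.43 CPM in primary untreated and from 0.134 to 2.99 CPM in recurrent DMAG tumors, and its log2 fold changes of 0.96 ± 1.27 on plain water and 0.71 ± 1.40 with stavudine were smaller than their errors.

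Of the 8 tested genes, Ptgds and Ptger2 did not overlap between recurrent and primary tumors on plain water, against 15.4% of all genes. With stavudine 5 of the 9 did not overlap, namely Ptger1, Ptgs2, Ptges, Ptgds and Hpgd, all higher in the recurrent tumors, against 35.3% of all genes with these group sizes.

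**Figure D3:**
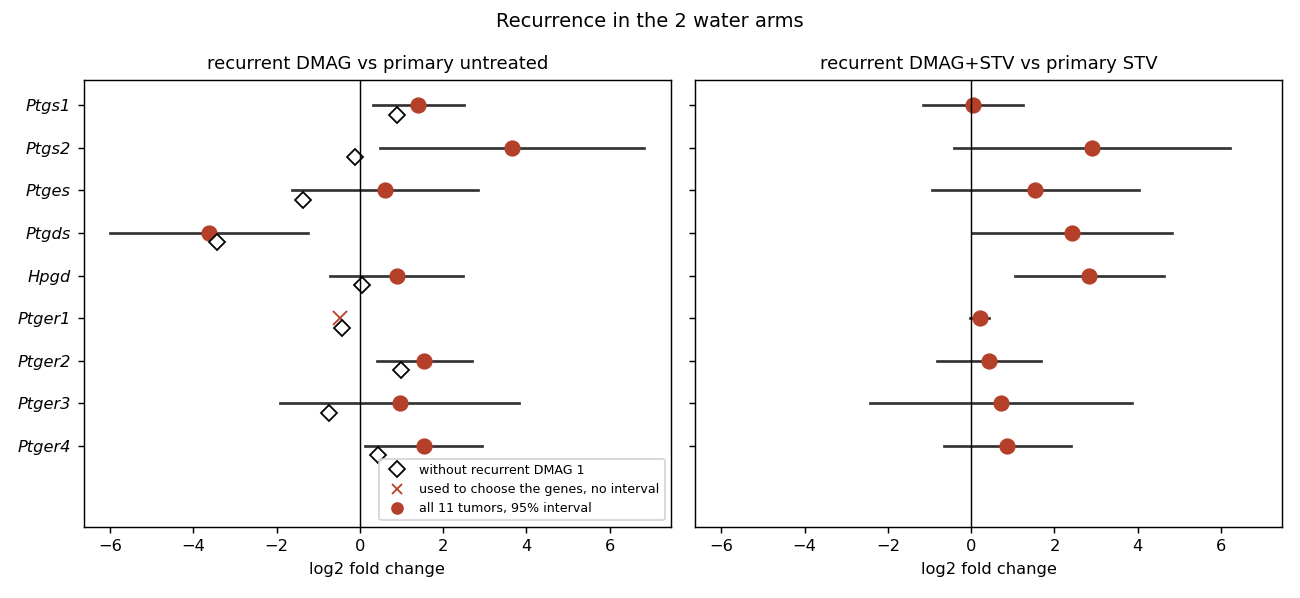
Log2 fold changes of recurrent against primary tumors on plain water (left) and with stavudine (right), with 95% intervals from all 11 tumors. Diamonds at left give the value without recurrent DMAG tumor 1, where Ptgs2 falls from 3.66 to -0.11; Ptgds lies at -3.62 at left and 2.42 at right.

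Averaged over both arms, edgeR called none of the 8 tested genes and no other gene (0%), 4 of the 8 and 13.6% of all genes had an unadjusted p under 0.05, and DESeq2 called 2.43% of all genes and 1 of the 8, Hpgd. The 4 were Ptgs2 (log2 fold change 3.28 ± 1.02, adjusted p = 0.311), Hpgd (1.86 ± 0.53, adjusted p = 0.289 by edgeR and 0.0255 by DESeq2), Ptger4 (1.20 ± 0.46, adjusted p = 0.332) and Ptger2 (0.99 ± 0.37, adjusted p = 0.330). Without recurrent DMAG tumor 1 they were 1.40, 1.44, 0.65 and 0.71, and without recurrent DMAG+STV tumor 2 Hpgd was at 0.90 (adjusted p = 0.690). None of the 9 genes had all 5 recurrent tumors on one side of all 6 primary tumors, which 1.37% of all genes had. The recurrent groups were also compared with each other, and this contrast shares its libraries with those above. None of the 8 tested genes was called by edgeR, DESeq2 or limma voom, where edgeR called 0% and DESeq2 1.58% of all genes. At an unadjusted p under 0.05 were Ptgds (2.61 ± 1.08, adjusted p = 0.609) and Hpgd (2.05 ± 0.78, adjusted p = 0.567), both higher with stavudine. Without recurrent DMAG+STV tumor 2 Hpgd was at 0.098. Ptgds did not overlap between the groups and Hpgd did, and 21.7% of all genes did not overlap. The recurrent groups also stood apart in proliferation markers, with a summed level of 805 to 850 CPM in recurrent DMAG and 162 to 367 CPM in recurrent DMAG+STV tumors, against 506 to 782 CPM in primary tumors, and the part of this in the results was not tested.

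Recurrent DMAG tumor 1 was the highest of the 11 tumors for Ptgs1, Ptgs2, Ptges, Ptger2, Ptger3 and Ptger4, so 6 of the 9 genes against 24.8% of all genes, and the lowest for Ptger1. It also had the highest summed level of fibroblast markers, 5728 CPM against 281 to 1896 CPM in the other 10 tumors. The same held for macrophage markers (500 against 128 to 304 CPM), endothelial markers (283 against 66.1 to 155 CPM), neutrophil markers (21.0 against 2.61 to 10.9 CPM) and mast cell markers (23.6 against 0.0422 to 13.4 CPM). No macrophage marker was at 0 in any library and no fibroblast marker was at 0 in any recurrent tumor. None of these lists had a gene called between recurrent and primary tumors. At an unadjusted edgeR p under 0.05 over both arms, 6 of 7 macrophage, 4 of 7 fibroblast and 3 of 4 neutrophil markers tested were higher. So were 1 of 6 endothelial and 1 of 6 mast cell markers, while 13.6% of all genes had such a p in either direction. That tumor was also the highest for luminal markers (2771 against 1352 to 2761 CPM) and milk protein genes (23351 against 4599 to 18731 CPM). The same was true of proliferation markers (850 against 162 to 806 CPM). It was the lowest for skeletal muscle (5.05 against 9.62 to 1882 CPM) and suprabasal skin markers (1.57 against 3.12 to 6.81 CPM). Its adipocyte, basal and lymphocyte sums lay inside the range of the other tumors. The part of any of these in the levels of the 6 genes was not tested.

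Among themselves, no pair of the 8 genes other than Ptger1 passed over the 11 tumors (28 pairs, 8 with an unadjusted permutation p under 0.05 for Pearson's r). The strongest pair was Ptger2 with Ptger4, at Pearson's r = 0.83 (permutation p = 0.0025, adjusted p = 0.0703) and Spearman's rho = 0.73 (permutation p = 0.0142, adjusted p = 0.182). It was 0.58 without the 2 tumors farthest from the median of Ptger2 and 0.60 without recurrent DMAG tumor 1. Ptger4 with Ptgs2 had r = 0.83 and rho = 0.26 (permutation adjusted p = 0.0809 and 0.701). Its r was -0.42 without the 2 tumors farthest from the median of Ptger4, and 0.51 without recurrent DMAG tumor 1 alone. With each group's mean removed, r was 0.80 and rho 0.74 (permutation adjusted p = 0.0584 and 0.123). That r was 0.52 without the 2 tumors then farthest from the median of Ptger4. The permutations after removal of group means shuffled all 11 tumors freely and made no allowance for the removed means. Their p-values can therefore be too small. Ptgs2 with Ptges had r = 0.73 and rho = 0.75 (permutation adjusted p = 0.0809 and 0.182), and r = 0.50 without the 2 farthest tumors. The genes whose log2 CPM was most like that of Ptgs2 over the 11 tumors, among 16869 others, were Myo1f, C1qc, Nckap1l, Slc8a1 and Camk1d, with r between 0.966 and 0.972, and between 0.905 and 0.926 without recurrent DMAG tumor 1.

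Ptger1 had the narrowest range and the pattern for which it was chosen. It had 21.2, 22.2 and 21.9 CPM in the recurrent DMAG tumors, from 915, 993 and 1045 counts. It had 28.4, 31.2 and 30.1 CPM in primary untreated tumors, 29.0, 29.6 and 30.1 CPM in primary STV tumors and 34.003 and 34.007 CPM in the recurrent DMAG+STV tumors. The 3 recurrent DMAG tumors thus lay below all other tumors and both glands, and the recurrent DMAG+STV tumors above all other tumors. Group means were 21.8 ± 0.515 (SD, n = 3) against 29.9 ± 1.40 (SD, n = 3) CPM on plain water, a log2 fold change of -0.47, and 34.005 ± 0.00312 (SD, n = 2) against 29.6 ± 0.532 (SD, n = 3) CPM with stavudine. The latter contrast, which holds no recurrent DMAG tumor, gave a log2 fold change of 0.21 (95% interval -0.02 to 0.43, adjusted p = 0.518). Between the recurrent groups the log2 fold change was 0.65.

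The 5 genes most like Ptger1 over the 11 tumors were Fam185a (r = 0.937), Thap11 (0.912), Uros (0.904), Rwdd4a (0.890) and Usp38 (0.880), and between 0.846 and 0.963 without recurrent DMAG tumor 1. The annotated span of Ptger4 (chr15:5206661-5244187, minus strand) overlaps that of Ttc33 on the other strand by 11676 bases, and the strand setting of the counting was not stated in the sources used here. Ttc33 ran from 17.6 to 25.4 CPM in tumors and had 20.5 and 15.5 CPM in glands, with a log2 fold change of 0.28 ± 0.15 (adjusted p = 0.227) between them. It was at 20.3 CPM in recurrent DMAG tumor 1, where Ptger4 was highest.

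The other pathway genes gave no call by edgeR in tumors, in any of the 6 contrasts and 40 genes tested. Those with the smallest p-values on plain water were Pla2g4a, the cytosolic phospholipase that frees arachidonic acid (log2 fold change 1.71 ± 0.56, adjusted p = 0.509), and Pla2g4c (0.83 ± 0.32, adjusted p = 0.509). Pla2g4a had 79.0 CPM in recurrent DMAG tumor 1 and 18.3 and 19.6 CPM in the other two, against 7.66 to 16.6 CPM in primary untreated tumors. In primary tumors Pla2g4a (1.14 ± 0.55) and Alox5ap (-0.97 ± 0.48), which helps 5-lipoxygenase use its substrate, had the smallest p-values for stavudine, both with an adjusted p of 0.9998. With stavudine the smallest were Cxcl1, a neutrophil-attracting chemokine (1.25 ± 0.36, adjusted p = 0.336), and Pla2g4b (-3.13 ± 1.01, adjusted p = 0.399, at most 0.368 CPM). Over both arms they were Cxcl1 (1.04 ± 0.24) and Alox5ap (1.30 ± 0.35), both with an adjusted p of 0.287. Cxcl1 had all 5 recurrent tumors, at 1.97 to 3.91 CPM, above all 6 primary tumors, at 1.00 to 1.77 CPM. Of all genes, 1.37% were separated in this way in one direction or the other. Between the recurrent groups they were Fam213b, a prostamide and prostaglandin F synthase (1.33 ± 0.39, adjusted p = 0.408), and Pla2g4c (-1.15 ± 0.37, adjusted p = 0.473). For the difference between arms they were Pla2g4c (-1.39 ± 0.48, adjusted p = 0.545) and the cytokine Tnf (-2.79 ± 1.00, adjusted p = 0.575).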

How the data were processed

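Libraries were made from total RNA after ribosomal depletion with a strand-marking kit. Per the submitters' processing notes and methods, reads were demultiplexed (bcl2fastq 2.20), aligned to the mouse genome (mm10) with STAR and counted per gene with featureCounts (Subread 1.6.2). Strand and multi-mapping settings were not given in the sources used here. The values deposited by the authors are raw counts per gene for 13 libraries, with no normalisation. Labels describe each tumor as a separate one but give no animal identifiers, so p-values measure the spread between these samples.

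Counts were tested with edgeR 4.0.16 (R 4.3.3): genes kept by filterByExpr, TMM factors, robust quasi-likelihood tests, two-sided, Benjamini-Hochberg adjustment over all genes, called under 0.05. All 13 libraries entered the tumor and gland comparison (17135 genes) and the 11 tumors the others (16870 genes). The contrasts in tumors share libraries. Standard errors are the log2 fold change over the root of F, and intervals are 95%. The study used DESeq2, which was an alternative here (1.42.0), as was limma 3.58.1. Other alternatives were DESeq2 size factors, no filter on low counts, only the groups compared, a replicate block, tests without milk, muscle and adipocyte genes, library totals alone and leaving out each library. The 28 pairs of the 8 genes other than Ptger1 were tested with 100000 permutations of log2 CPM (prior count 2), two-sided. Exonic lengths and overlaps came from GENCODE on GRCm38, promoters from RefSeq (GRCm38.p6; 8 of the 9 genes matched). In simulated counts for the tumor and gland comparison, the test called some but not all genes changed 4-fold.

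The 9 genes and the gene lists were chosen with earlier results of these data known. Results on 1 further gene are not reported here. Text names the 9 genes, Ttc33 (which overlaps Ptger4), called genes of the pathway lists and the 2 smallest p-values of those lists in each contrast, and the 5 genes most like Ptger1 and Ptgs2. Genes outside this rule are named as such.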

Additional observations from a re-analysis of the deposited data

Results flagged for a closer look

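The fold change of Ptgds with recurrence had one sign on plain water and the other with stavudine, and the groups did not overlap in either arm. All 3 recurrent DMAG tumors lay below the primary untreated tumors, and both recurrent DMAG+STV tumors lay above the primary STV tumors. The difference between the arms was 6.04 on the log2 scale (adjusted p = 0.435 by edgeR), and 350 of 16870 genes (2.07%) had opposite, non-overlapping levels of this kind. Ptger1, chosen for its low level in the recurrent DMAG tumors, differed by 0.68 between the arms, which is a description of the values it was chosen by and was not tested.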

How the results depend on the processing

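Fits of only the groups compared give nothing new for comparisons that already hold all libraries. Leaving out a gland or a recurrent DMAG+STV tumor leaves 1 sample, assumed to vary like the other groups. For the 5 genes called between tumors and glands, direction held under every setting, while the count was 1 with the replicate number as a block, 2 with library totals alone (added after the data were seen), and 1 to 5 without single libraries. Library totals moved the median log2 fold change of all genes in that comparison by 0.39 and left 489 genes called (8 higher, 481 lower, against 275 and 1510), the block left 371, and DESeq2 called 3242, of which 66.7% were lower against 84.6%. Samples shared only a number: same-numbered libraries correlated at a median of -0.05 (15 pairs, 2 above 0.1), and the replicate block changed no other count. Without single libraries the count of called genes among the 9 was 0 in each comparison of tumors.

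DESeq2 called 1 gene on plain water (Ptgds), 1 with stavudine (Hpgd), 1 averaged over both arms (Hpgd) and 1 for the difference between arms (Ptgds), where edgeR called 0. It gave no adjusted p for Ptgs2 in any comparison or for Ptges against glands. With group means removed or DESeq2 size factors, 0 of the 28 pairs passed, with 7 and 8 at an unadjusted permutation p under 0.05. As said above, the p-values with group means removed can be too small.

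Some log2 fold changes that passed no test changed sign. Ranges without single libraries were, for tumors against glands, -0.19 to 1.42 (Ptgs2) and -0.92 to 0.44 (Hpgd). For stavudine in primary tumors they were -0.066 to 0.024 (Ptger1, 0.013 with library totals), -0.80 to 1.36 (Ptger3, 0.0012 with library totals), -0.069 to 0.79 (Ptgs1) and -0.19 to 0.28 (Hpgd). For recurrence on plain water they were -0.74 to 2.35 (Ptger3), -0.11 to 4.25 (Ptgs2) and -1.37 to 1.96 (Ptges). For recurrence with stavudine they were -0.15 to 0.83 (Ptger2), -0.31 to 1.48 (Ptger3), -0.0094 to 1.40 (Ptger4) and -0.23 to 0.39 (Ptgs1, -0.053 with the replicate block). Between recurrent groups they were -1.30 to 1.41 (Ptger3, 0.48 by limma voom and 0.076 with the replicate block), -1.37 to 0.63 (Ptger4), -3.10 to 2.13 (Ptgs2, 0.15 by voom) and -1.09 to 1.43 (Ptges, 0.36 by voom). Averaged over both arms they were -0.019 to 1.53 (Ptger3) and -0.85 to 0.41 (Ptgds, 0.045 by voom). For the difference between arms they were -1.64 to 1.44 (Ptger3, 0.86 by voom and 0.15 with the replicate block), -1.57 to 0.42 (Ptger4), -2.21 to 3.01 (Ptgs2, 1.22 by voom), -0.44 to 2.90 (Ptges) and -0.017 to 2.78 (Hpgd). The cause was not tested. Of 1180 values recomputed for single genes, 1104 stayed the same, meaning that they kept direction and side of the threshold. For Ptger1 in the contrasts where it was not tested, it meant a shift smaller than its SD within groups. Most of the 1180 values belong to genes without a call, which had no call to lose. All 19 values that lost a call belong to genes called between tumors and glands. Ptger3 lost it in 8 of 20 settings, Ptgs1 in 6 of 20, Ptger4 in 3 of 20, Ptges in 2 of 19 and Ptger2 in 0 of 20.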

Other observations

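Of the 41 other pathway genes tested, 19 had their highest tumor level in recurrent DMAG tumor 1, among them Pla2g4a, the thromboxane synthase Tbxas1, Alox5ap, the leukotriene receptor Cysltr1 and the thromboxane receptor Tbxa2r; over all genes 24.8% had it there. Another 6 of the 41 had their lowest tumor level in that tumor, among them the prostaglandin transporter Slco2a1, with 230 CPM there and 349 to 680 CPM in the other 10. The genes named here, other than Pla2g4a and Alox5ap, and Akr1b3, which had no count, were chosen after their values were seen.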
